A study of Mus musculus with 57 samples.

Results

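The potassium channel genes of the mouse were examined through 3 histone marks at their promoters in brain cortex and gastrocnemius, a fast skeletal muscle of the lower leg. Members were the protein-coding autosomal genes with an NM_ transcript in RefSeq whose symbol starts with Kcn, which gave 92 of 20021 genes, and 2 further Kcn genes on X were left out. Membership was decided by the symbol. By the names of their proteins they fell into voltage-gated Kv1 (8 genes), Kv2 (2), Kv3 (4), Kv4 (2), Kv7 (5) and Kv10 to Kv12 (8), the silent Kv subunits (10), Slo (4), SK (4), the inward rectifiers Kir (15), the leak channels K2P (14) and auxiliary subunits (16). All tissues came from PSAPP mice, a model of Alzheimer's disease that carries a mutated human presenilin 1 and a chimeric mouse/human amyloid precursor protein with the Swedish mutation, killed at 13 months of age. The mice had been singly housed from 6 months on a modified AIN-93 diet at 11.2 kcal per day. Every animal carried both transgenes, no group without them was profiled, and the sources used here do not name the promoter that drives them. Chromatin immunoprecipitation and sequencing of H3K4me3, H3K27ac and H3K27me3 gave 57 libraries, with 9 of cortex and 10 of gastrocnemius for each mark, from 10 mice of which 9 gave both tissues. Both sexes were profiled according to the study's methods, but the labels do not assign a sex to a library and sex was not used.

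Potassium channels let potassium ions leave or enter a cell and so set its resting potential and end its action potentials. Kv channels open on depolarisation, Kir channels pass current mainly inwards, K2P channels carry leak currents, and SK and most Slo channels respond to intracellular ions such as calcium or sodium. Neurons combine many of them, whereas the skeletal muscle fibre is known for inward rectifiers, the ATP-sensitive channel and a smaller set of Kv channels. H3K4me3 and H3K27ac mark the promoters of active genes, and H3K27me3 is laid down by the Polycomb complex PRC2 at silent developmental genes. A promoter that carries H3K4me3 and H3K27me3 together on the same nucleosome is called bivalent. In bulk tissue the marks may lie in different cells, so below a promoter is only said to carry both.

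Promoter sequences are shown for 7 members that the results below turn on: Kcna2, Kcna6, Kcnj9 and Kcnip3, with H3K27me3 in gastrocnemius alone, Kcnj2, with no H3K27me3 in either tissue, and Kcna7 and Kcng4, with more H3K4me3 in gastrocnemius. The marks named here are those at the start shown. Each sequence runs from 150 bases before the transcription start site (TSS) to 30 bases from it onwards, on the strand of the gene, as given by RefSeq for GRCm38.p6, which is mm10. Capitals mark every CG dinucleotide.
Kcna2: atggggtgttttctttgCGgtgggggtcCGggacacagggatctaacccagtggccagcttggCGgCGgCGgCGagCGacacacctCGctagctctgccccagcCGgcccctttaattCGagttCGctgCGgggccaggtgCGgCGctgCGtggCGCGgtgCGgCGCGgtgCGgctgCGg
Kcna6: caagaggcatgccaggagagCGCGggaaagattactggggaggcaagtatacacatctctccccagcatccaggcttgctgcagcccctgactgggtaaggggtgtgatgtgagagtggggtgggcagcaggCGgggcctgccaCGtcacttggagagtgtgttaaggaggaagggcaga
Kcnj9: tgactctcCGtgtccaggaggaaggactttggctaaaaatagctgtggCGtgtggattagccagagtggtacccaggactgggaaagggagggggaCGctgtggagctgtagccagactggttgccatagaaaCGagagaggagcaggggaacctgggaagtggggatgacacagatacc
Kcnip3: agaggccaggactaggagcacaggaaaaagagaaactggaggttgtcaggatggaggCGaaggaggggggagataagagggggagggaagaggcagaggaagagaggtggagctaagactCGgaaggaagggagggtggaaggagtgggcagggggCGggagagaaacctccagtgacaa
Kcnj2: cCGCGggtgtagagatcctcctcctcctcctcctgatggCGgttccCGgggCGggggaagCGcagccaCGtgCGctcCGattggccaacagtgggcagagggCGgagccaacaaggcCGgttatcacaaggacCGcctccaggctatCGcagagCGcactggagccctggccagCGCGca
Kcna7: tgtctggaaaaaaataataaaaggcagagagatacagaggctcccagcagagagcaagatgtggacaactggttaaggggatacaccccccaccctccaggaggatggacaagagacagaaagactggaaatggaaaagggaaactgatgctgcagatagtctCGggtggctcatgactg
Kcng4: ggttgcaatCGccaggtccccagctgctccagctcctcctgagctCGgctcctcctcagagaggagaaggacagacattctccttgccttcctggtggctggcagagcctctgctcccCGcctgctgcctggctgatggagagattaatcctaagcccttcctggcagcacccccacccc

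These windows are chr3:107101417-107101596 on the plus strand for Kcna2, chr6:126740645-126740824 on the minus strand for Kcna6, chr1:172329293-172329472 on the minus strand for Kcnj9 and chr2:127521363-127521542 on the minus strand for Kcnip3. Those of the other genes are chr11:111066014-111066193 on the plus strand for Kcnj2, chr7:45405810-45405989 on the plus strand for Kcna7 and chr8:119635651-119635830 on the minus strand for Kcng4. In the full 300 bases given for each promoter (250 before the TSS and 50 after it), CG occurred 31 times at Kcna2 and 18 times at Kcnj2. It occurred 8 times at Kcna6, 5 times at Kcnj9 and 4 times at each of Kcnip3, Kcna7 and Kcng4, and 26.8% of all promoters in the same table held 4 or fewer. The letters CAGCTG, which read the same on both strands, were found in these 300 bases at Kcna2, Kcnj2 and Kcng4 and lay in 15% of all promoters of that length. RefSeq promoters could be matched to 63 of the 92 members and to 15654 of all genes, and with fewer than 80% of members matched no group of members was compared by sequence.

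For every library the reads of its called peaks within 1 kb of the main TSS of a gene were expressed as RPM, the reads per 1000000 reads in its autosomal peaks. A library with no peak there has the value 0, which means under the peak caller's threshold and not an absence of reads. Reads in peaks ranged from 2.99 M in a gastrocnemius library of H3K27me3 to 27.3 M in a gastrocnemius library of H3K27ac. The H3K27ac library of cortex replicate 9 held 3.94 M reads, the fewest of its mark, and the H3K27me3 library of gastrocnemius replicate 5 held 18.2 M, the most of its mark. The tissue labels were checked on promoters of cell type markers. Summed over 6 neuronal genes, H3K4me3 was 166 to 200 RPM in cortex libraries against 13.3 to 22.4 RPM in those of gastrocnemius, and all 6 were higher in the cortex. Over 9 genes of the muscle fibre it was 22.0 to 41.7 against 113 to 162 RPM in gastrocnemius, where 8 were higher, and 7 of the 9 had no H3K4me3 peak in any cortex library. Marker sums of glia were also higher in the cortex, with H3K4me3 of 45.4 to 69.9 RPM against 16.5 to 32.2 over 4 oligodendrocyte genes, 40.0 to 56.6 against 19.9 to 33.8 over 4 astrocyte genes and 7.84 to 19.9 against 0 to 2.27 over 4 microglial genes. Called higher in the cortex for H3K4me3 were 3 of the 4 oligodendrocyte, 2 of the 4 astrocyte and 3 of the 4 microglial genes. The astrocyte gene Aldh1l1 had less in the cortex (mean 8.74 against 15.8 RPM). Aqp4, of astrocytes, and Aif1, of microglia, had no H3K4me3 peak in any library. Both tissues are mixtures, and fewer cells of a type cannot be told apart from less signal per cell. The summed H3K4me3 of the 92 members went the same way as the sums of the neuronal and glial lists, at 1633 to 1917 in the cortex and 665 to 852 in gastrocnemius, and the part that cell composition takes in the differences below was not tested.

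The tissues differed at a majority of the members for both activating marks, mostly towards the cortex. A gene was called when the adjusted p of edgeR's quasi-likelihood test over all genes was under 0.1 and the change at least 2-fold. For H3K4me3, 47 of the 76 members with enough peaks to be tested were higher in the cortex and 6 in gastrocnemius, beside 14.3% and 7.19% of all genes tested. For H3K27ac, 47 of 78 were higher in the cortex (14.5% of all genes tested) and 3 in gastrocnemius (5.66%). For H3K27me3 the larger number lay on the other side, with 5 of 83 higher in the cortex (14.2% of all genes tested) and 22 in gastrocnemius (23.6%). The median log2 ratio of cortex over gastrocnemius among tested members was 1.41 for H3K4me3, 1.43 for H3K27ac and -0.29 for H3K27me3, beside 0.35, 0.32 and -0.00184 over all genes tested. Scaling by TMM factors moved these medians of all genes to 0.04, 0.04 and -0.03, and the H3K4me3 calls of members to 40 in the cortex and 9 in gastrocnemius (11.5% and 9.18% of all genes tested). The share of members called higher in gastrocnemius for H3K27me3 was near that of all genes tested, which fell to 18.2% with the mouse as a block, where 21 of the 83 members were called. H3K4me3 was present in most libraries at 72 members in the cortex and 62 in gastrocnemius, beside 67.3% and 65.4% of all genes, and H3K27ac at 76 and 44, beside 69.7% and 65.4%. Among all 92 members, 69 carried an H3K27me3 peak in most gastrocnemius libraries, beside 23% of all genes, and 59 did so in the cortex, beside 22%.

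**Figure D1:**
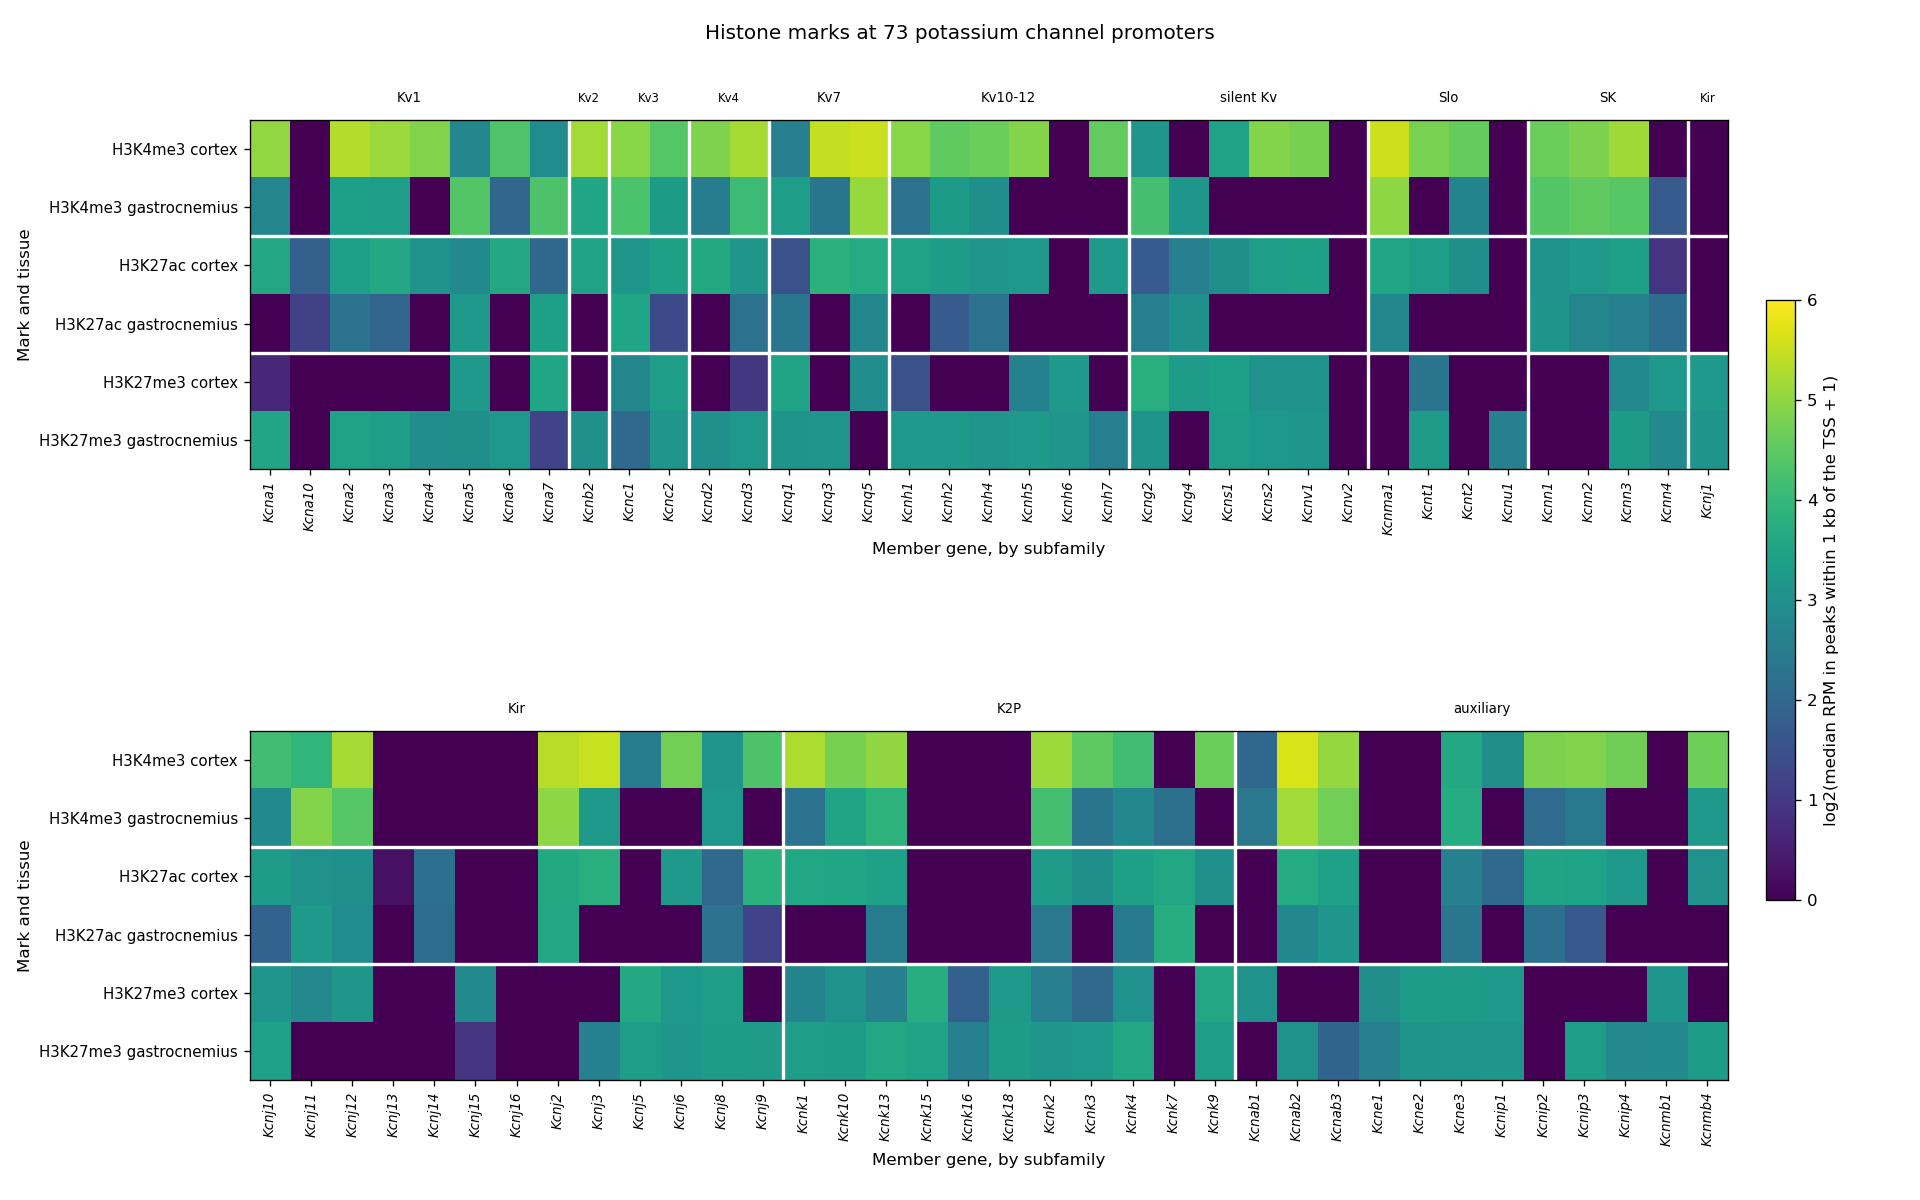
Heat map of the 73 members described by name, by subfamily (horizontal axis) for each mark and tissue (vertical axis), with colour giving log2 of the median RPM over the 9 cortex or 10 gastrocnemius libraries plus 1. H3K4me3 and H3K27ac are brighter in the cortex rows for most members, while H3K27me3 is present in both tissues for most of them and dark in the cortex for Kcna2, Kcna3, Kcna4 and Kcna6.

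Some members separated completely at their main start. An H3K4me3 peak was present in every cortex library and in no gastrocnemius library at 10 members (2.09% of all genes), which were Kcna4, Kcnh7, Kcnip1, Kcnip4, Kcnj6, Kcnj9, Kcnk9, Kcns2, Kcnt1 and Kcnv1. The opposite held at 1 member, Kcng4 (1.09%). For H3K27ac, 19 members had a peak in every cortex library and in none of gastrocnemius (3.08%), and 8 of the 10 genes just named were among them, all but Kcnip1 and Kcnj9. The opposite held for H3K27ac at 0 members (0.989% of all genes). These are 10.9% and 20.7% of the 92 members for the cortex, and 1.09% for Kcng4, which is the share of all genes. For H3K27me3 it was gastrocnemius that had more such genes, with a peak in every library there and none in the cortex at Kcna2, Kcna6, Kcnip3, Kcnj9 and Kcnq3 (5 members or 5.43%, beside 1.44% of all genes), and the opposite at Kcng4 (1.09%, beside 0.819%).

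Kv1 channels are delayed rectifiers and low-threshold channels of axons, and Kcna7 is known from skeletal muscle. Among the 8 Kv1 genes, 5 of the 7 tested for H3K4me3 and 5 of the 8 for H3K27ac were higher in the cortex, beside 14.3% and 14.5% of all genes tested. For H3K27me3, 5 of the 8 were higher in gastrocnemius, beside 23.6% of all genes tested. Kcna2, which encodes an axonal channel, is an example. H3K4me3 at its TSS (chromosome 3, 107101567) was lowest at 34.4, median 38.5 and highest at 45.9 RPM in the cortex and 8.31, 9.43 and 12 in gastrocnemius. The tissues did not overlap, and the difference of the log2(RPM + 1) values was 1.90 ± 0.08 (SE, n = 9 and 10, edgeR adjusted p = 9.33e-15). H3K27ac ran from 8.59 through 9.41 to 15.6 in the cortex and from 3.18 through 3.87 to 5.57 in gastrocnemius, also without overlap (log2 ratio 1.31, edgeR adjusted p = 3.16e-08). H3K27me3 was called in 0 of 9 cortex and 10 of 10 gastrocnemius libraries, where it ran from 4.95 through 9.92 to 13.7 (Fisher's exact test, adjusted p = 0.000478). So gastrocnemius carried both H3K4me3 and H3K27me3 at Kcna2, and the cortex only the first.

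Kcna6, another Kv1 channel of neurons, changed in the same direction for each mark. Its H3K4me3 values were 14.6, 19.5 and 26.6 (lowest, median, highest) in the cortex and 0, 2.96 and 4.56 in gastrocnemius, with a peak in 9 of 10 libraries there. H3K27ac was 7.11, 11.3 and 13.4 in the cortex and had no peak in gastrocnemius. H3K27me3 had no peak in the cortex and was 4.51, 8.25 and 11.5 in gastrocnemius. The groups overlapped for none of these marks. At Kcna4, which encodes an inactivating A-type channel, H3K4me3 was 22.5, 27.9 and 35.8 in the cortex and was called in no gastrocnemius library (Fisher's exact test, adjusted p = 0.000341), whereas H3K27me3 was called in 8 of 10 gastrocnemius libraries and no cortex library (adjusted p = 0.0124 by the same exact test). Kcna3, best known from lymphocytes, had H3K27me3 in 1 cortex library at 0.458 RPM and in all 10 of gastrocnemius between 4.61 and 13.8. Kcna1, an axonal channel, had H3K4me3 of 27.6 to 39.9 RPM in the cortex against 3.99 to 8.62 RPM in gastrocnemius, and its H3K27me3 values overlapped between the tissues.

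Both Kv1 genes that went the other way for H3K4me3 carried H3K27me3 in the cortex. At Kcna7 (chromosome 7, 45405960), H3K4me3 was 3.22, 6.47 and 7.12 in the cortex and 15.6, 18.9 and 21.3 in gastrocnemius. The ranges did not overlap, with a log2(RPM + 1) difference of -1.57 ± 0.12 (SE, edgeR adjusted p = 3.54e-10). H3K27ac was called in 5 of 9 cortex libraries (0, 3.11 and 3.98) and in all of gastrocnemius (7.76, 9.64 and 12.9). H3K27me3 was 7.96, 10.8 and 13.3 in the cortex and reached at most 6.09 in gastrocnemius, where 5 of 10 libraries had a peak (log2 ratio 2.19, edgeR adjusted p = 0.0314). At Kcna5, a delayed rectifier of heart and vessels, H3K4me3 was 3.34, 5.90 and 8.57 in the cortex and 14.2, 20 and 23.7 in gastrocnemius, again without overlap. Its H3K27me3 values overlapped, with a log2 ratio of 0.31 (edgeR adjusted p = 0.671).

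**Figure D2:**
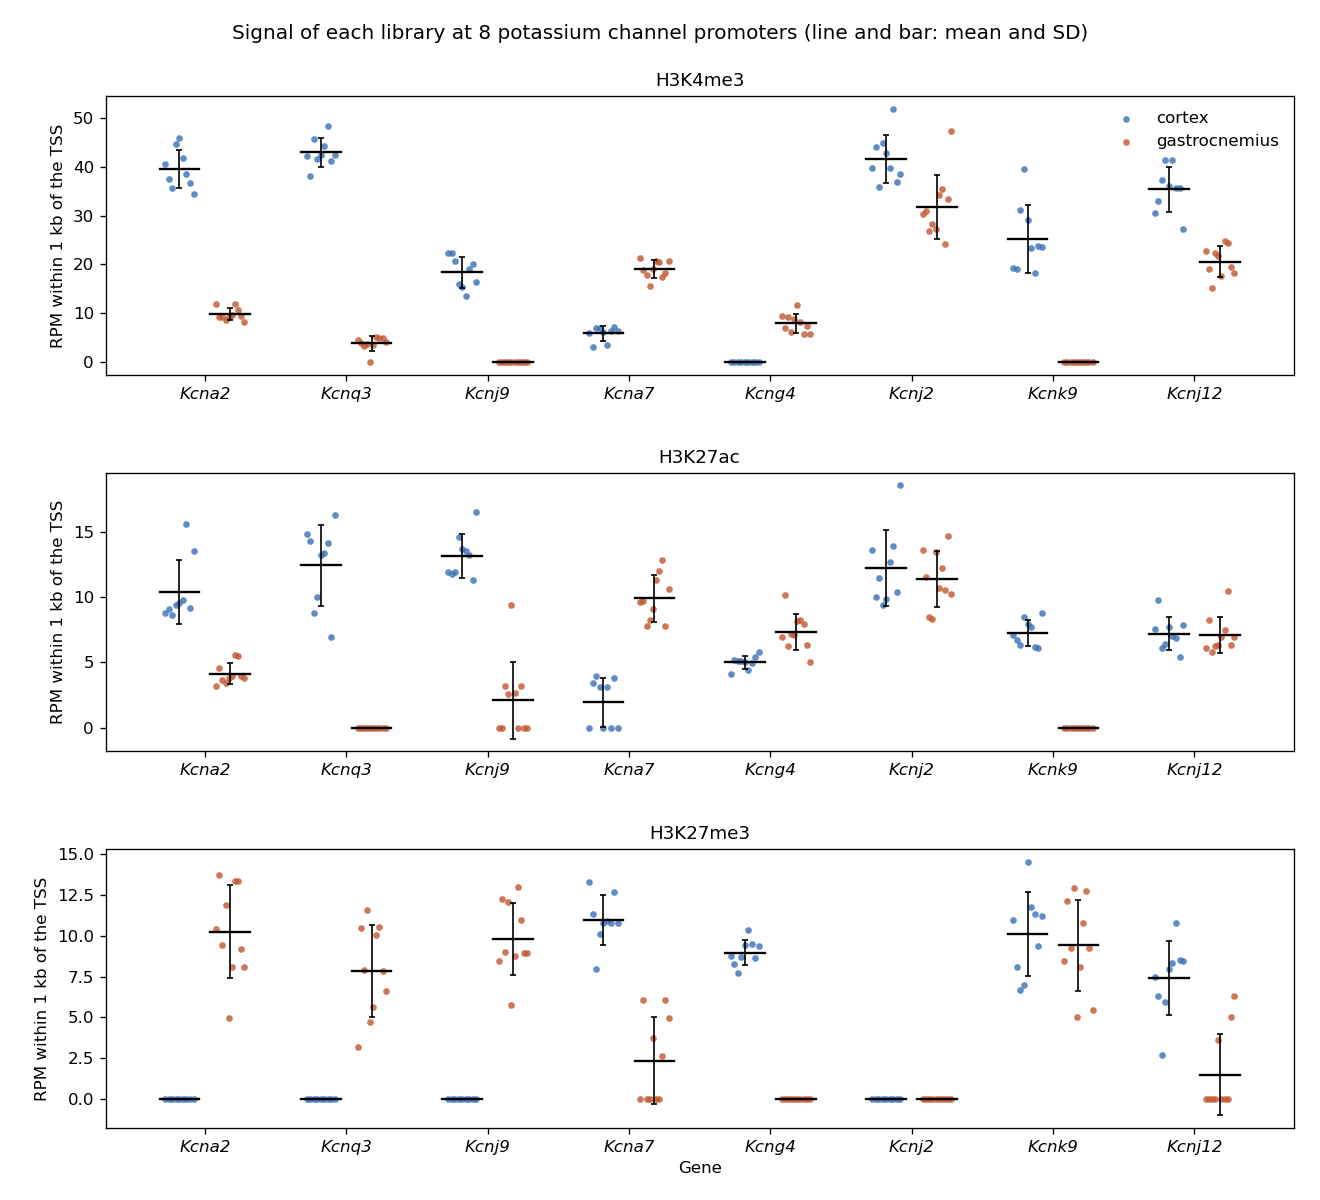
RPM within 1 kb of the TSS (vertical axis) in each library for 8 members (horizontal axis), with 1 panel for each mark, points in blue for the 9 cortex and in orange for the 10 gastrocnemius libraries, and a line and bar for the mean and SD. Kcna2, Kcnq3 and Kcnj9 have H3K27me3 in gastrocnemius alone, Kcng4 in the cortex alone and Kcnk9 in both, while Kcnj2 has none.

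Kv2, Kv3 and Kv4 channels shape the somatic and dendritic action potentials of neurons. Kcnb2, a Kv2 channel, had H3K4me3 of 25.3, 34.9 and 41.2 in the cortex against 7.88, 10.8 and 13.0 in gastrocnemius, and H3K27ac in the cortex alone. Kcnc1, which encodes a channel of fast-spiking neurons, was not called for any mark, and its H3K27ac was 6.09, 8.03 and 13.4 in the cortex and 8.56, 10.8 and 13.9 in gastrocnemius. Kcnc2, also of Kv3, was higher in the cortex for both activating marks. At Kcnd2, an A-type channel of dendrites, H3K4me3 was 22.6, 27.5 and 44.5 in the cortex and 0, 4.76 and 5.56 in gastrocnemius (log2 ratio 2.72, edgeR adjusted p = 9.71e-08). H3K27me3 at Kcnd2 was called in no cortex library and in 8 of 10 of gastrocnemius, with a highest value of 13.2. Kcnd3, the other autosomal Kv4 gene, had H3K27me3 of at most 1.95 in the cortex and at least 4.95 in gastrocnemius.

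Kv7 channels carry the M current that restrains repetitive firing, and Kcnq3 encodes a neuronal subunit. At Kcnq3 (chromosome 15, 66286629), H3K4me3 was 38.2, 42.4 and 48.3 in the cortex and 0, 4.08 and 5.15 in gastrocnemius (log2 ratio 3.48, edgeR adjusted p = 6.52e-11). H3K27ac was 6.97, 13.4 and 16.3 in the cortex and was called in no gastrocnemius library. H3K27me3 was called in no cortex library and was 3.16, 7.88 and 11.6 in gastrocnemius (Fisher's exact test, adjusted p = 0.000478). All of its marks thus separated the tissues completely. Kcnq1, of heart and epithelia, was called for H3K27ac, with 0, 1.83 and 3.12 in the cortex and 3.62, 4.08 and 4.97 in gastrocnemius (log2 ratio -1.72, edgeR adjusted p = 0.0682).

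The Kcnh genes of Kv10 to Kv12 form the ether-a-go-go family. The 7 of 8 that could be tested for H3K4me3 and for H3K27ac were all higher in the cortex, beside 14.3% and 14.5% of all genes tested. For H3K27me3, 4 of the 8 were higher in gastrocnemius, beside 23.6% of all genes tested. Kcnh7, an erg channel of neurons, had H3K4me3 of 20.1, 22.7 and 28.3 in the cortex and none in gastrocnemius, where 6 of 10 libraries had H3K27me3. Kcnh1, which encodes ether-a-go-go itself, had 27.1, 29.8 and 36.3 in the cortex and 0, 3.81 and 5.21 in gastrocnemius. Kcnh2, the erg channel that repolarises the heart, had H3K27me3 of at most 2.61 in 3 cortex libraries and of 2.70, 8.39 and 14.2 in gastrocnemius. Kcnh6 was the exception, with H3K27me3 in every library of both tissues, no H3K4me3 call in gastrocnemius and 2 cortex libraries with an H3K4me3 peak.

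Silent Kv subunits form no channel of their own and modify Kv2 channels. For H3K4me3, 9 of the 10 were tested, and 6 were higher in the cortex and 2 in gastrocnemius, beside 14.3% and 7.19% of all genes tested. Kcng4 was the only member at which H3K4me3 and H3K27me3 exchanged places completely in the direction of muscle. H3K4me3 at its TSS (chromosome 8, 119635680) was called in 0 of 9 cortex libraries and was 5.70, 7.85 and 11.7 in gastrocnemius (Fisher's exact test, adjusted p = 0.000341). H3K27me3 was 7.73, 8.77 and 10.3 in the cortex and was called in 0 of 10 gastrocnemius libraries (adjusted p = 0.000478 by the same exact test). H3K27ac was nevertheless called in every library of both tissues, at 4.12, 5.07 and 5.77 in the cortex and 5.01, 7.12 and 10.1 in gastrocnemius, with overlap and a log2 ratio of -0.55 (-3.20 with whole peak counts). Kcng2 was called higher in gastrocnemius for H3K4me3 (6.27, 7.72 and 12.7 against 10.1, 17.7 and 22.1) and for H3K27ac, close to the 2-fold limit with log2 ratios of -1.03 and -1.09. The H3K4me3 call was lost without cortex replicate 1 or gastrocnemius replicate 1 or 4 (-0.98 to -0.99), and the H3K27ac call without cortex replicate 9 (-0.95). Kcns2 and Kcnv1 had H3K4me3 in the cortex alone, between 24.1 and 33.5 over both genes, and H3K27me3 in 8 of 9 cortex and all gastrocnemius libraries. Kcnv2, a subunit of photoreceptors, had no peak of any mark in any library.

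Slo channels give large potassium currents, and SK channels are opened by calcium and contribute to the afterhyperpolarisation. Kcnma1, the BK channel of neurons and muscle, was higher in the cortex by less than 2-fold for H3K4me3 (43.0, 45.9 and 63.3 against 22.4, 30.3 and 37.4) and H3K27ac, of which the second turned to a log2 ratio of -0.43 with whole peak counts. Its H3K27me3 was called in 1 cortex and 2 gastrocnemius libraries. Kcnt1, a sodium-activated channel, had H3K4me3 of 21.0, 26.5 and 33.4 in the cortex and none in gastrocnemius at its main start. At its start 14 kb upstream, 7 of 10 gastrocnemius libraries had H3K4me3 (mean 2.65 RPM), beside a mean of 13.5 in the cortex. At its main start Kcnt1 had H3K27me3 in 7 of 9 cortex libraries and all of gastrocnemius (log2 ratio -1.47, edgeR adjusted p = 0.0496), so that the cortex carried both marks there. That H3K27me3 call was lost in libraries without an S number in the deposited name (log2 ratio -1.77). Kcnt2 had H3K4me3 in every library, at 20.1, 23.1 and 28.3 in the cortex and 3.81, 5.54 and 9.45 in gastrocnemius. Kcnu1, of sperm, had H3K27me3 alone, in 3 cortex and 7 gastrocnemius libraries. Among the SK genes, Kcnn1, Kcnn2 and Kcnn3 were not called for any mark, and Kcnn3 had H3K4me3 of 27.3, 34.5 and 43.5 in the cortex and 16.2, 20.7 and 22.7 in gastrocnemius, without overlap but under 2-fold. Kcnn4, of blood cells and epithelia, had H3K4me3 in no cortex library and in 6 of 10 of gastrocnemius, at no more than 3.90.

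Of the Kir genes, Kcnj2 and Kcnj12 encode strong inward rectifiers of the muscle fibre. Kcnj2, which sets the resting potential of muscle and many neurons, had H3K4me3 of 35.8, 39.7 and 51.9 in the cortex and 24.1, 30.6 and 47.3 in gastrocnemius. The groups overlapped, as they did for H3K27ac (9.39, 11.5 and 18.5 against 8.29, 11.1 and 14.7), with log2 ratios of 0.38 and 0.08. With the whole count of every peak that touches the window in place of the share within it, the log2 ratios of Kcnj2 were -0.67 and -1.39. Kcnj12, another strong rectifier, was higher in the cortex by less than 2-fold for H3K4me3 (27.1, 35.7 and 41.4 against 15.1, 20.6 and 24.7), yet it had H3K27me3 in all 9 cortex libraries (2.68, 7.96 and 10.8) and in 3 of 10 of gastrocnemius. That last difference had an edgeR adjusted p of 0.0934, and it lost the call without any of 15 of the 19 libraries (adjusted p of 0.108 to 0.135). Kcnj11, the pore of the ATP-sensitive channel, had more H3K4me3 in gastrocnemius, at 12.5, 14.5 and 16.2 in the cortex and 21.6, 28.4 and 39.1 in gastrocnemius. Those ranges did not overlap, but the log2 ratio of -0.98 was under 2-fold, and without gastrocnemius replicate 4, 5, 9 or 10 it passed 2-fold, at most to -1.01, and was called. It was also called with TMM factors (-1.29), with DESeq2 (-1.33) and in libraries without an S number in the deposited name (-1.07). Kcnj8, its relative of vessels, had log2 ratios of 0.05 for H3K4me3 and -0.48 for H3K27ac, of which the latter was -1.13 with a window of 2.5 kb and -1.84 with whole peak counts.

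The G protein-gated rectifiers, which slow the heart and inhibit neurons, are Kcnj3, Kcnj5, Kcnj6 and Kcnj9. All 4 were called higher in the cortex for H3K4me3 and for H3K27ac, the latter at Kcnj5 from 3 cortex libraries and not with the mouse as a block (edgeR adjusted p = 0.213). For H3K27me3, Kcnj9 alone of them was called. Kcnj9 (chromosome 1, 172329322) had H3K4me3 of 13.6, 19.1 and 22.4 in the cortex and none in gastrocnemius (Fisher's exact test, adjusted p = 0.000341). H3K27ac was 11.3, 13.2 and 16.5 in the cortex and called in 5 gastrocnemius libraries, of which the highest had 9.40. H3K27me3 was called in no cortex library and was 5.76, 8.97 and 13.0 in gastrocnemius. Kcnj6 had H3K4me3 of 18.2, 25.3 and 31.0 in the cortex alone, but H3K27me3 in every library of both tissues (5.81, 8.11 and 8.79 against 4.66, 7.94 and 11.2), which overlapped. Kcnj3 carried H3K4me3 in both tissues (34.5, 44.0 and 55.1 against 6.03, 8.45 and 12.4), and Kcnj5, the partner of Kcnj3 in the heart, had at most 6.41 in 8 cortex libraries and none in gastrocnemius. Kcnj10, the rectifier of astrocytes, was higher in the cortex for H3K4me3 (10.3, 16.8 and 25.1 against 3.68, 6.14 and 9.22) and for H3K27ac, with H3K27me3 in every library of both tissues. Kcnj1 of the kidney and Kcnj15 had H3K27me3 as their only mark, and Kcnj13 and Kcnj14 had no H3K27me3 peak in any library.

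Among the 14 K2P genes, 8 of the 12 tested for H3K4me3 and 8 of the 11 for H3K27ac were higher in the cortex, beside 14.3% and 14.5% of all genes tested. For H3K27me3, 2 of the 13 tested were higher in gastrocnemius, a smaller share than the 23.6% of all genes tested. Kcnk9, an acid-sensitive leak channel, had H3K4me3 of 18.3, 23.6 and 39.6 in the cortex and none in gastrocnemius. Its H3K27me3 was present in every library, at 6.66, 11 and 14.5 in the cortex and 5.03, 9.25 and 12.9 in gastrocnemius, with a log2 ratio of 0.13 (edgeR adjusted p = 0.629). The groups overlapped widely for that mark. Kcnk3, a close relative of Kcnk9, had H3K4me3 of 15.6, 21.8 and 29.4 against 1.69, 3.94 and 5.54, and H3K27ac in the cortex alone. Its H3K27me3 call towards gastrocnemius had an edgeR adjusted p of 0.0785, which was 0.173 with the mouse as a block. Kcnk1 had 27.7, 37.3 and 44.9 against 2.19, 3.86 and 5.68. Kcnk10 had H3K4me3 in all libraries (19.8, 26.1 and 28.1 against 6.67, 10.4 and 13.8) and H3K27ac in the cortex alone (8.81, 10.7 and 12). Its H3K4me3 log2 ratio was just under 2-fold with TMM factors (0.99) and DESeq2 (0.96). Kcnk2, a mechanosensitive channel, was called for H3K27ac (7.22, 8.98 and 12.3 against 3.18, 4.28 and 4.86) and was under 2-fold for H3K4me3. Its H3K4me3 passed 2-fold with a window of 2.5 kb (log2 ratio 1.70), with whole peak counts (1.91) and in libraries without an S number (1.04). H3K4me3 was also called at its most upstream start, from a peak in 5 cortex libraries and no gastrocnemius library. The H3K27ac log2 ratio of Kcnk2 was under 2-fold with TMM factors (0.87) and DESeq2 (0.85). It was -0.95 at the most upstream start, where only 1 cortex and 3 gastrocnemius libraries had a peak. Kcnk7 was the exception towards muscle, with H3K4me3 in no cortex library and in 8 of gastrocnemius at up to 5.58. Its H3K27ac was called in every library of both tissues, at 5.57, 11.2 and 13.7 against 9.46, 12.3 and 14. Kcnk16, of the pancreas, and Kcnk18, of sensory neurons, had H3K27me3 as their only mark.

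Auxiliary subunits alter the gating and trafficking of the pores. Of the 16, 11 were tested for each activating mark, and 6 were higher in the cortex for each, beside 14.3% (H3K4me3) and 14.5% (H3K27ac) of all genes tested. For H3K27me3, 1 of the 15 tested was higher in the cortex and 5 in gastrocnemius, beside 14.2% and 23.6% of all genes tested. Kcnip3, a calcium-binding partner of Kv4 channels, had H3K4me3 of 24.4, 28.0 and 34.8 in the cortex and 0, 4.34 and 5.94 in gastrocnemius. H3K27me3 at the main start of Kcnip3 was called in no cortex library and was 5.22, 9.11 and 12.8 in gastrocnemius. At its start 38.9 kb downstream, H3K27me3 was called in 8 of 9 cortex and all 10 gastrocnemius libraries (means of 5.2 and 10.5 RPM). H3K4me3 there was 12 in the cortex and 11.8 in gastrocnemius. With the TSS of the highest mean, the H3K27me3 log2 ratio of Kcnip3 was -0.998, just under 2-fold. Kcnip4 and Kcnip1, of the same family, had H3K4me3 in the cortex alone, at 17.1, 25.1 and 28.5 and at 5.04, 6.82 and 13.3. Kcnip2, the partner of Kv4 channels in heart and brain, had H3K4me3 of 20.3, 27.2 and 34.2 against 0, 3.26 and 5.97, with H3K27me3 in 4 gastrocnemius libraries (edgeR adjusted p = 0.0136, and 0.128 with the mouse as a block). Kcnab2, a Kv1 beta subunit, had H3K4me3 in every library of both tissues (41.5, 50 and 60.8 against 20.4, 34.9 and 45.5) and H3K27me3 in 9 of 10 of gastrocnemius and none of the cortex. Its window also holds the TSS of Nphp4, 189 bases away, so its H3K4me3 cannot be given to either gene. Kcnmb4, the neuronal BK beta subunit, had H3K27me3 in 1 cortex library and in all of gastrocnemius (4.73, 9 and 14). Kcnmb1, the BK beta subunit of smooth muscle, and the cardiac and epithelial subunits Kcne1 and Kcne2 carried H3K27me3 in at least 9 libraries of each tissue and no H3K4me3.

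Taking both marks per tissue, with a promoter counted as marked when most libraries of the tissue had a peak, H3K4me3 with H3K27me3 was the most frequent state of members. With a peak required in every library that order turned in the cortex, to 31 members with both and 39 with H3K4me3 alone, while gastrocnemius had 26 and 23. By presence in most libraries, the state with both was found at 47 members in the cortex and 46 in gastrocnemius, or 51.1% and 50% of the 92, where it was found at 12.4% and 12.9% of all genes. H3K4me3 without H3K27me3 was found at 25 and 16 members (27.2% and 17.4%, beside 55% and 52.6% of all genes). H3K27me3 alone was found at 12 members in the cortex and 23 in gastrocnemius (13% and 25%, beside 9.67% and 10.2%). H3K27ac accompanied both marks at 45 of the 47 members in the cortex and at 29 of the 46 in gastrocnemius, beside 87.5% and 74.1% of all genes in that state.

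**Figure D3:**
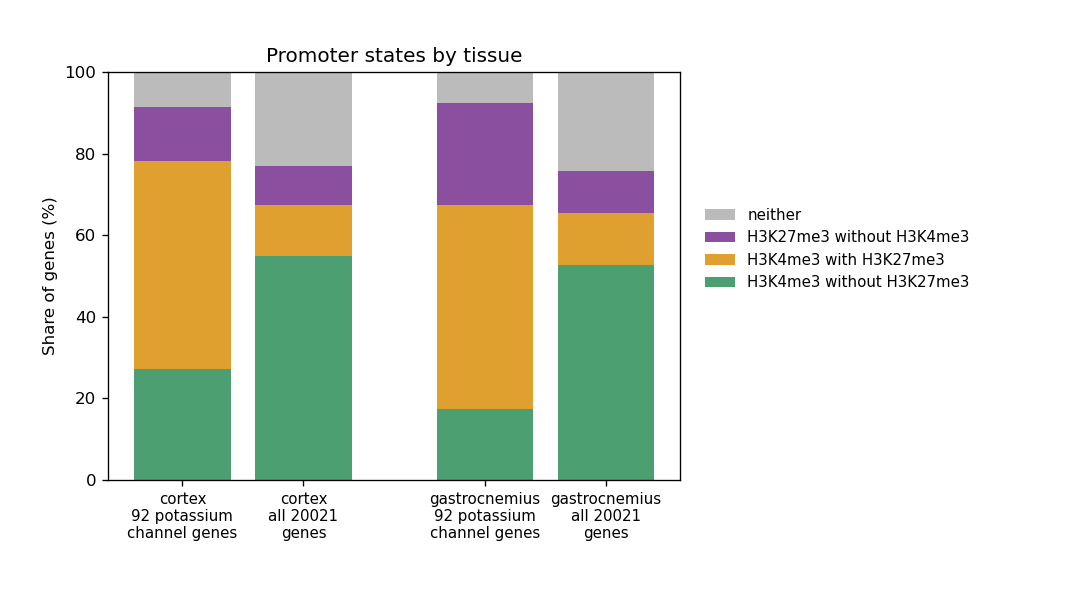
Stacked bars of the share of genes (vertical axis, %) in each of 4 promoter states, for the 92 members and for all 20021 genes in cortex and gastrocnemius. Promoters with H3K4me3 and H3K27me3 make up 51.1% and 50% of members and 12.4% and 12.9% of all genes.

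Following the main start of each member across the tissues, 32 carried both marks in both (34.8%, beside 7.44% of all genes). A further 13 carried H3K4me3 alone in the cortex and both in gastrocnemius (14.1%, beside 4.8%), which were Kcna2, Kcna3, Kcna6, Kcnab2, Kcnab3, Kcnb2, Kcnd2, Kcnh2, Kcnh4, Kcnip3, Kcnj3, Kcnmb4 and Kcnq3. At 9 members both marks in the cortex stood against H3K27me3 alone in gastrocnemius (9.78%, beside 2.18%): Kcnh5, Kcnip1, Kcnj5, Kcnj6, Kcnk9, Kcns1, Kcns2, Kcnt1 and Kcnv1. An exchange, from H3K4me3 alone in the cortex to H3K27me3 alone in gastrocnemius, was seen at 4 members (4.35%, beside 0.864%), which were Kcna4, Kcnh7, Kcnip4 and Kcnj9. At Kcnip4 it rests on the majority of libraries, as H3K27me3 was present in 3 cortex and 8 gastrocnemius libraries. The H3K27me3 difference of Kcnip4 was not called (log2 ratio -1.25, edgeR adjusted p = 0.446). Kcng4 made the opposite exchange, which 0.594% of all genes made. At 6 members both marks in the cortex stood against H3K4me3 alone in gastrocnemius (6.52%, beside 2.59% of all genes), and Kcna7, Kcnab1, Kcnj11, Kcnj12 and Kcnq5 were among them, which include the muscle Kv1 gene and both the ATP-sensitive pore and a strong rectifier. These states rest on the majority of libraries. At Kcna7 as many gastrocnemius libraries had an H3K27me3 peak as had none. Kcnj11 had H3K27me3 in 6 of 9 cortex libraries, and its difference was not called (log2 ratio 2.07, edgeR adjusted p = 0.28). Neither was that of Kcnq5 (log2 ratio 1.92, edgeR adjusted p = 0.2). Only 8 members had H3K4me3 without H3K27me3 in both tissues (8.7%, beside 48.2% of all genes), and these include Kcnj2, Kcnma1, Kcnn1 and Kcnn2. The other start of Kcnn1, 6.25 kb away, had H3K27me3 in all 9 cortex and all 10 gastrocnemius libraries. The start of Kcnn2 291 kb away had H3K27me3 in 3 cortex and all 10 gastrocnemius libraries. Its mean H3K4me3 there was 58.6 RPM in the cortex and 33.3 in gastrocnemius, beside 27 and 21.1 at the main start.

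The calls of the 3 marks fell on overlapping members. Of the 47 members higher in the cortex for H3K4me3, 46 were also among the 47 higher in the cortex for H3K27ac (97.9%, beside 76.9% of all genes higher in the cortex for H3K4me3). Of the 22 members higher in gastrocnemius for H3K27me3, 20 were higher in the cortex for H3K4me3, or 90.9% of the first list and 42.6% of the second, beside 43.2% and 35.5% for the same lists over all genes. The other 27 of the 47 were thus higher in the cortex for H3K4me3 without an H3K27me3 call. Of the 6 higher in gastrocnemius for H3K4me3, 2 (Kcna7 and Kcng4) were higher in the cortex for H3K27me3, or 33.3% beside 28.1% over all genes.

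**Figure D4:**
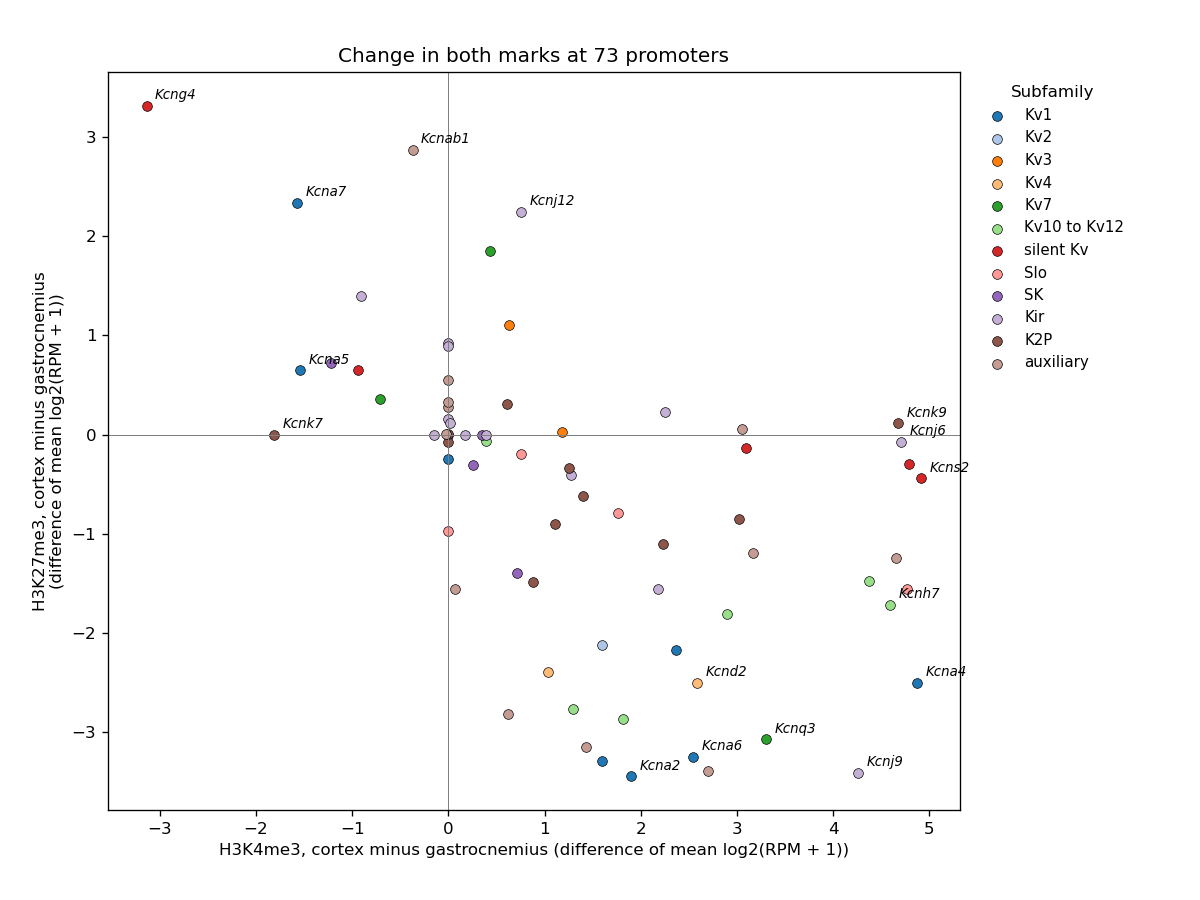
Difference of the mean log2(RPM + 1) between cortex and gastrocnemius for H3K4me3 (horizontal axis) and H3K27me3 (vertical axis), with 1 point for each of the 73 members described by name, coloured by subfamily. Kcng4 and Kcna7 lie at the upper left, Kcna2, Kcna6, Kcnq3 and Kcnj9 at the lower right, and Kcnk9, Kcnj6 and Kcns2 far to the right near an H3K27me3 difference of 0.

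Peak width was compared at the members with a peak in every library of both tissues. At the 48 such members for H3K4me3 the median peak was 5.2 kb wide in the cortex and 3.55 kb in gastrocnemius, beside 3 kb and 3.9 kb over all 12132 such genes. At the 31 such members for H3K27me3 the medians were 8.2 kb and 12.4 kb, beside 9.4 kb and 11.2 kb over 1692 genes. At Kcna7 the H3K4me3 peak was 2.2 kb in the cortex and 12.7 kb in gastrocnemius, and at Kcna6 it was 11.6 kb and 1.4 kb. Kcnj2, whose signal near the TSS overlapped between the tissues, had an H3K4me3 peak of 6.4 kb in the cortex and 13.8 kb in gastrocnemius, and an H3K27ac peak of 7 kb and 19.6 kb. H3K27ac at Kcng4 likewise covered 4.8 kb in the cortex and 28.5 kb in gastrocnemius. Wider H3K27ac peaks lay at Kcnk7 in gastrocnemius, with a median of 54.3 kb, and at Kcnj9 in the cortex, with 47.4 kb.

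Several members have more than 1 TSS with an NM_ transcript, and at a few of them the values differed between starts. At the main, most upstream start of Kcnab1, a Kv1 beta subunit, H3K4me3 was 2.68 ± 1.18 RPM in the cortex (SD, n = 9) and 3.85 ± 1.63 in gastrocnemius (n = 10), and H3K27me3 was 8.06 ± 2.04 and 0.601 ± 1.90. At its start 160 kb downstream, H3K4me3 was 28.6 ± 3.57 and 7.48 ± 1.71 and H3K27ac was 10.4 ± 1.68 and 1.76 ± 1.33. At the main start the H3K4me3 ranges of Kcnab1 overlapped (log2 ratio -0.52, edgeR adjusted p = 0.405), so no direction is given there. Kcnh2 had H3K4me3 of 22.6 ± 2.87 and 8.61 ± 1.12 at its main start, and 3.42 ± 1.98 and 9.89 ± 1.51 at the start 22 kb further on, so that the shorter form had more in gastrocnemius. Kcnj16, a rectifier of kidney and glia, carried neither H3K4me3 nor H3K27ac at its main start, but at a start 29.5 kb downstream all 9 cortex libraries had H3K4me3 (4.79 ± 1.08) and no gastrocnemius library did. At the internal starts of Kcnab2, 24.6 and 28.7 kb from the main start, H3K27ac was called in the cortex alone (9.48 ± 1.61 at both, which share a peak), and H3K27me3 in gastrocnemius alone (8.72 ± 2.68 and 6.95 ± 3.71).

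**Figure D5:**
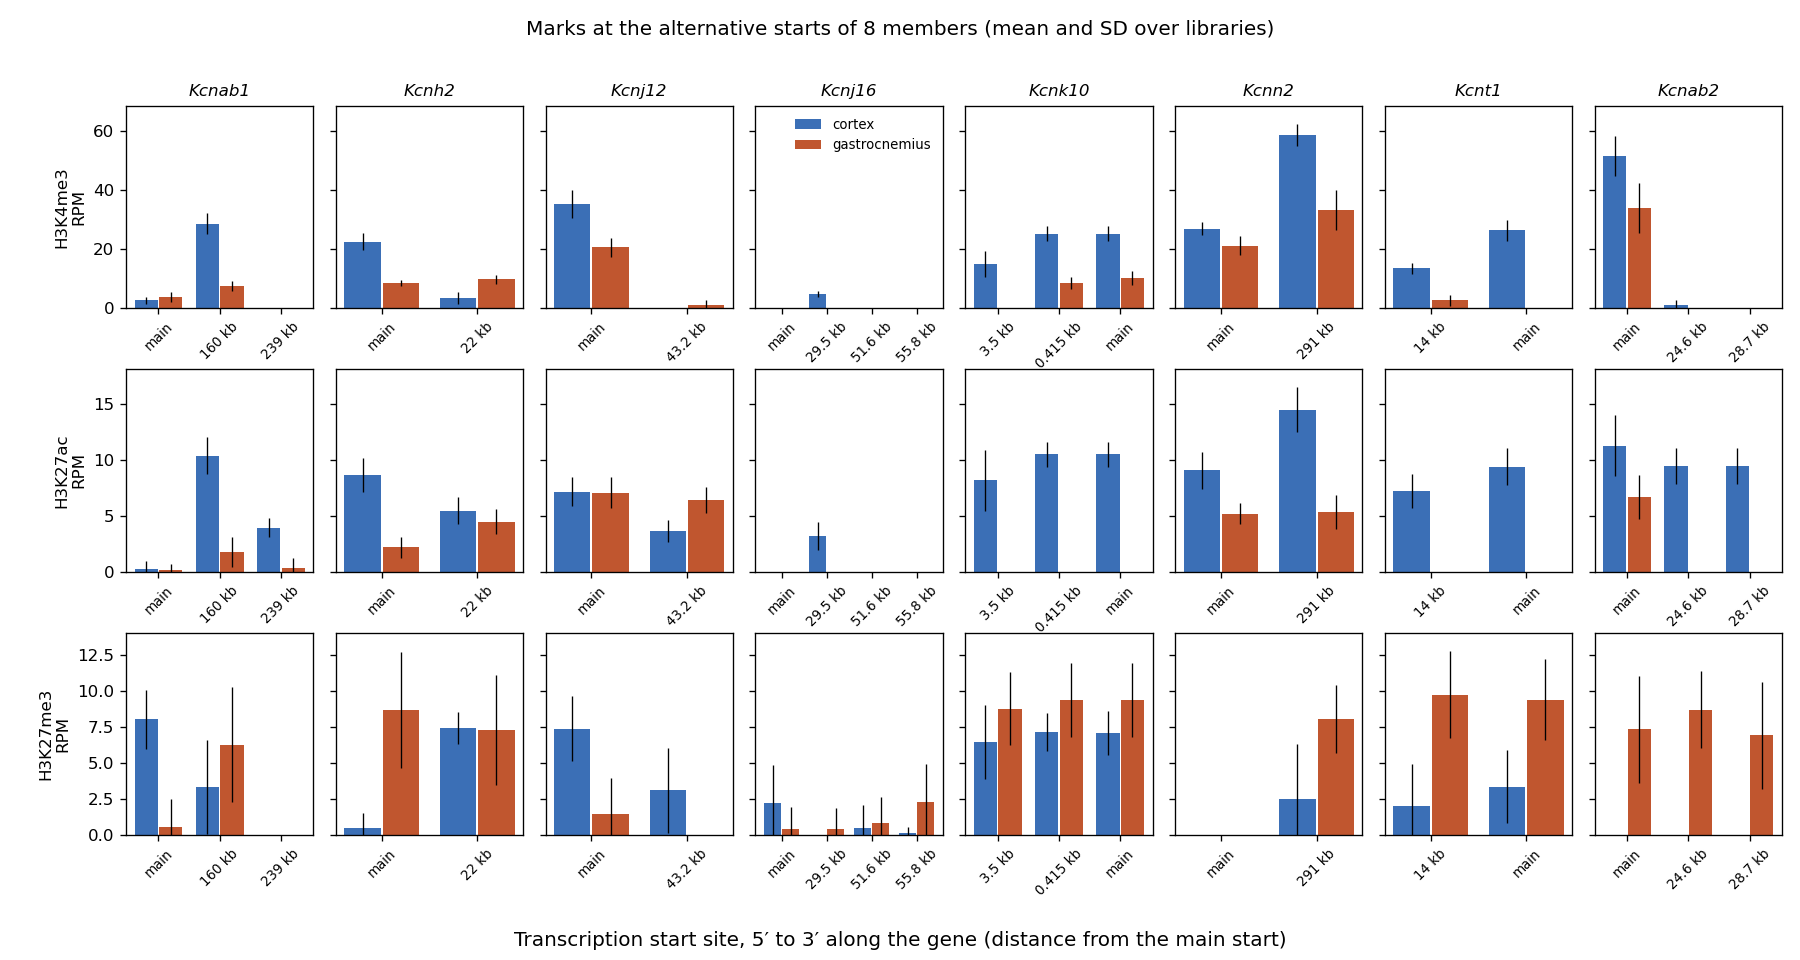
Mean RPM with SD (vertical axes) over the 9 cortex (blue) and 10 gastrocnemius (orange) libraries at each NM_ start of 8 members (columns), for each mark (panel rows), with starts ordered along the gene by distance from the main start (horizontal axes). At Kcnab1 the start 160 kb downstream holds most of the H3K4me3, and at Kcnh2 the tissue with more H3K4me3 differs between the starts.

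Some members lie near each other, with 11 pairs of starts within 200 kb. Kcnj9 and Kcnj10 are the closest, 11.9 kb apart, and 3 of 10 gastrocnemius libraries had a single H3K27me3 peak over both starts, the only pair for which any library did. Their H3K27me3 nevertheless differed in the cortex, where Kcnj10 had a peak in every library and Kcnj9 in none. Kcna3 and Kcna2, 65.4 kb apart, both went from H3K4me3 alone in the cortex to both marks in gastrocnemius, while Kcna10 beside them, 81.6 kb from Kcna2, had no H3K4me3 in any library.

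Other genes of potassium handling were compared as a list of 31, holding partners of the channels, HCN channels, the sodium pump and cation-chloride cotransporters. For H3K4me3, 8 of the 29 tested were higher in the cortex and 5 in gastrocnemius, beside 14.3% and 7.19% of all genes tested. For H3K27ac it was 9 and 3 of 31, beside 14.5% and 5.66%, and for H3K27me3 it was 6 and 4 of 21, beside 14.2% and 23.6%. Abcc9, the sulphonylurea receptor that pairs with Kcnj11 in muscle, had H3K4me3 of 3.40 ± 1.48 in the cortex (SD, n = 9) and 22.0 ± 6.18 in gastrocnemius (n = 10), and H3K27me3 of 10.4 ± 2.22 and 0.347 ± 1.1. The BK gamma subunit Lrrc52 had H3K4me3 in gastrocnemius alone (9.85 ± 1.87) and H3K27me3 in the cortex alone (6.55 ± 0.912), the same exchange as Kcng4, and another, Lrrc38, had H3K4me3 of 10.7 ± 1.78 and 28.2 ± 4.71. Of the other two, Lrrc26 was also called higher in gastrocnemius for H3K4me3 (3.53 ± 0.451 and 11.1 ± 2.15), whereas Lrrc55 was called higher in the cortex (11.9 ± 2.55 and 2.51 ± 1.98), with H3K27ac in the cortex alone. Hcn2, a pacemaker channel of neurons and heart, had H3K4me3 of 33.1 ± 4.85 and 5.29 ± 1.17 and H3K27me3 in all 10 gastrocnemius libraries and no cortex library, as at Kcna2 and Kcnq3. Dpp10, a Kv4 partner, had H3K4me3 in the cortex alone (30.9 ± 3.85), as its relative Dpp6 did (6.44 ± 2.19).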

How the data were processed

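Chromatin immunoprecipitation and sequencing of 3 histone marks in 57 libraries, 9 of cortex and 10 of gastrocnemius for each mark, was analysed from the peaks called in each library. Alignment to mm10 by the authors used bwa. They filtered the alignments with SAMtools for duplicates, low mapping quality and sequences other than the autosomes and X, and called peaks with epic2, for which the sources used here give no version. The deposited count of a peak is the whole number of reads the authors counted in it, not normalized, and the deposited score, used here only to rank peaks, is that of epic2. No input library enters these values. Precision is limited by the reads in peaks, 3.94 to 27.3 M for H3K27ac, 9.16 to 19.0 M for H3K4me3 and 2.99 to 18.2 M for H3K27me3.

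The main TSS of a gene was the NM_ TSS shared by most of its NM_ transcripts (RefSeq, GRCm38.p6), or the most upstream in a tie. Peak counts were shared by overlap with the 2001 bp window around it and divided by the reads in autosomal peaks (RPM). Windows with a peak in at least 3 libraries were tested with edgeR 4.0.16 in R 4.3.3 (quasi-likelihood test on rounded reads, library size the reads in autosomal peaks, all genes in 1 fit per mark), and called at a Benjamini-Hochberg adjusted p under 0.1 and 2-fold. Differences with standard errors are from limma 3.58.1 on log2(RPM + 1). Presence of peaks was compared by two-sided Fisher's exact test over all genes with the same adjustment. DESeq2 1.42.0, the filter, window, TSS, peak thresholds, replicate blocks and single libraries left out were alternatives. The edgeR code was tested on simulated data. Python 3.11.15 was used for the rest.

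Named were, for each mark, the 5 members with the largest fitted change in each direction among those called without overlap, members with H3K4me3 or H3K27me3 in every library of 1 tissue and none of the other, up to 3 with no called change, and a list of textbook members. Further members of a subfamily are named for counts, states and starts, after their values were seen. Some members are in every count but are not reported here by name. The members and lists were chosen with earlier results of these data known. Mouse numbers in the deposited names pair 9 mice across the tissues. Deviations from the tissue means of libraries of the same mouse correlated at -0.0798 to 0.0475 for H3K4me3, -0.0695 to 0.0541 for H3K27ac and -0.0273 to 0.0674 for H3K27me3, and the main test has no block. The deposited names differ in style between the tissues, so tissue and any difference in processing cannot be told apart.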

Additional observations from a re-analysis of the deposited data

Results flagged for a closer look

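Outlying libraries were sought in the sum over all members and at members named by the rules given above. A member was tested only where every library of the tissue had a peak. Further members named after their values were seen were not tested. In 8 of 150 groups of libraries tested, 1 library stood apart from the others by Dixon's criterion, which chance alone meets in about 1 of 20 groups. In H3K27ac of the cortex, replicate 9, the library with the fewest reads in peaks of that mark (3.94 M), was highest at 4 of them: Kcna1 with 20.8 RPM and the nearest other library at 13, Kcnj10 with 13.7 and 10.6, Kcnj2 with 18.5 and 13.9, and Kcnma1 with 16.3 and 11.4. Without it, 46 members were called higher in the cortex for H3K27ac and 2 in gastrocnemius. In the same mark, cortex replicate 6 had 10.9 at Kcna4 (nearest 8.55) and gastrocnemius replicate 8 had 10.4 at Kcnj12 (nearest 8.26). For H3K4me3, cortex replicate 5 had 44.5 at Kcnd2 (nearest 29.6) and gastrocnemius replicate 10 had 47.3 at Kcnj2 (nearest 35.4).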

How the results depend on the processing

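For the counts of members called, of members with a peak in 1 tissue alone and of promoter states, 261 values under the alternatives stayed within 1.5 times the value given and 17 did not. Members higher in gastrocnemius numbered 10 for H3K4me3 and 7 for H3K27ac without the 2-fold limit (14.2% and 11.2% of all genes tested), and for H3K27ac they numbered 5 with TMM factors (6.9%), 5 with DESeq2 (7%), 11 with whole peak counts (21%) and 1 in libraries without an S number in the deposited name (5.09%). For H3K27me3, limma called 10 members higher in the cortex with a pseudocount of 1 and 10 with 0.25, beside 19.2% and 21.4% of all genes tested. Members with H3K27me3 in the cortex alone numbered 3 without the 25% of lowest-scoring peaks (0.829% of all genes) and 4 in libraries without an S number (1.43%), and those with it in gastrocnemius alone numbered 8 when a peak had to cover 50% of the window (1.18%). When a mark had to be present in every library, H3K4me3 without H3K27me3 was found at 39 members in the cortex, so that it became the most frequent state there, both marks at 31 in the cortex and 26 in gastrocnemius, and neither at 20 in gastrocnemius. With a peak in at least 3 libraries, 10 members had H3K4me3 alone in gastrocnemius, and with equally many top-scoring peaks 13 had neither there.

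Leaving out 1 library in turn gave 47 to 47 calls for the cortex and 5 to 7 for gastrocnemius with H3K4me3, 45 to 47 and 2 to 4 with H3K27ac, and 4 to 5 and 19 to 24 with H3K27me3. H3K27me3 without gastrocnemius replicate 5, the most deeply sequenced, gave 5 and 22. Calls lost in more than 1 of these fits were H3K27me3 at Kcnj12, Kcnk3 (11 libraries), Kcnk13 (9, log2 ratio -0.997 to -0.93) and Kcnh1 (6, adjusted p 0.101 to 0.12 by edgeR), H3K27ac at Kcnk4 (9) and H3K4me3 at Kcng2 (3). H3K27me3 differences that became calls included Kcnma1 without cortex replicate 8, Kcnj3 without cortex replicate 9, Kcnb2 without cortex replicate 1 or 9, and Kcnj16 without gastrocnemius replicate 7 (edgeR adjusted p = 0.0411, 0.059, 0.0754 to 0.0971, and 0.0129). The H3K27me3 call at Kcnj12 was lost with TMM factors and DESeq2 at log2 ratios of 1.81 and 1.75, and the H3K27ac call of Kcnq1 in libraries without an S number at -2.10.

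With a replicate block by mouse the calls were 46 and 6 for H3K4me3, 46 and 3 for H3K27ac and 6 and 21 for H3K27me3, cortex first (14.1% and 6.74%, 14.4% and 5.34%, and 12.8% and 18.2% of all genes tested), and by title number 46 and 6, 46 and 3, and 7 and 20 (14.3% and 6.65%, 14.5% and 5.38%, and 14.1% and 19.2%). The block by mouse ended the calls at Kcnk15 for H3K4me3 (edgeR adjusted p = 0.292), at Kcnj5 for H3K27ac (0.213) and at Kcnt2, Kcnk3 and Kcnip2 for H3K27me3 (0.291, 0.173 and 0.128). It added Kcnb2, Kcnq5 and Kcnk1 for H3K27me3 (0.024, 0.0304 and 0.0932) and changed no other call of a member.

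Log2 ratios of named members changed sign in 9 values in which either ratio was called or the ratio moved by at least 2-fold, listed here, and smaller changes of sign near 0 are not listed. A further 57 moved past the threshold and 18 fell short of it in the same direction. With the TSS of the highest mean, Kcnab1 had 1.93 for H3K4me3 and -0.91 for H3K27me3. With the most upstream TSS, Kcne3 had -2.86 for H3K27ac, and Kcnk2 had -0.95 for H3K27ac (peaks in 1 cortex and 3 gastrocnemius libraries) and 0.38 for H3K27me3. With whole peak counts, Kcnj2 had -0.67 for H3K4me3 and -1.39 for H3K27ac, Kcnj12 had -1.32 for H3K27ac and Kcnma1 had -0.43 for H3K27ac. Apart from the settings whose construction moves the start or drops libraries or peaks, the cause was not tested. An uncalled window may hold reads under the threshold, so no fold is given against a tissue with no peak.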
